A study of Homo sapiens with 4 samples.

Results

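Transcripts of the translation initiation and elongation factors were compared between SUM149PT cells carrying a short hairpin RNA (shRNA) against EMP2 and the same cells carrying a control vector. SUM149PT is an established cell line from an inflammatory breast cancer, and EMP2 encodes epithelial membrane protein 2, a small tetraspan membrane protein. The control group held 2 libraries of cells stably infected with a lentiviral vector control, and the knockdown group held 2 libraries of cells stably infected with the EMP2 construct, which has the same name in both libraries. The labels do not say whether either line is a pool or a clone, or whether separate cultures were used within a group. The p-values therefore reflect variation among these 4 libraries that may be technical. Factors were found by name: gene symbols beginning with EEF, or with EIF and a digit from 1 to 6. Of 70 such rows, 10 were left out, namely 4 eIF2 kinases, 3 antisense genes, 2 pseudogenes and 1 read-through gene. The 60 factors kept were part of a table of 25343 genes, and 58 of them reached 1 CPM (a read count scaled to a common library total) in at least 2 of the 4 libraries and were tested among 13661 genes. The other 2, EIF1AY and EIF4E1B, were listed at 0 in every library.

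Translation of an mRNA begins when eIF4E binds its cap and, through the scaffold eIF4G, brings in the helicase eIF4A and a small ribosomal subunit loaded with eIF1, eIF1A, eIF3, eIF5 and the initiator tRNA carried by eIF2. The subunit scans to the start codon, eIF2 leaves and is recharged by eIF2B, and eIF5B joins the large subunit. The ribosome then elongates the chain with eEF1A, which delivers aminoacyl-tRNA and is recharged by the eEF1B complex, and with eEF2, which moves the ribosome along. The mRNAs of several of these factors, like those of ribosomal proteins, begin with a C and a run of pyrimidines, the 5′ terminal oligopyrimidine (TOP) tract, through which TOR signalling and LARP1 control their translation and stability.

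Library totals ran from 13360907 to 14647053 recovered reads, so a gene at 0 could hold up to 0.208 to 0.227 CPM (3 reads, counting error only). EMP2 itself read 126.1 and 124.6 CPM with the control vector, against 23.0 and 22.6 CPM with the EMP2 construct, a log2 change of -2.43 (SE 0.051, limma adjusted p = 3.7e-15). Of 6 epithelial genes, EPCAM, CDH1, KRT8, KRT18 and KRT5 lay between 236.2 and 1172 CPM in all libraries. In both knockdown libraries all 5 were above both controls, an order also found for 33.4% of all tested genes. CDH1 was at 340.5 and 346.2 CPM against 444.0 and 454.3 CPM, and KRT8 at 999.6 and 995.5 CPM against 1171 and 1172 CPM. KRT18 was at 369.9 and 380.1 CPM against 435.2 and 419.4 CPM. The values were closer for EPCAM (236.2 and 240.1 against 249.8 and 246.1 CPM) and KRT5 (911.2 and 927.2 against 941.1 and 957.8 CPM). The basal keratin KRT14 was at 17.6 and 20.2 CPM in the controls, against 9.76 and 7.79 CPM in the knockdowns. Leukocyte genes were at or near 0, with CD3E at 0 and PTPRC at up to 0.287 CPM, and the endothelial gene VWF reached 0.749 CPM and PECAM1 2.21 CPM. Among fibroblast genes COL3A1 reached 0.227 CPM, and COL1A1 was at 38.6 and 43.8 CPM in the controls, against 44.1 and 46.5 CPM in the knockdowns. The part of the epithelial and other marker genes in the results was not tested, and fewer cells of a type cannot be told apart from less RNA per cell in these bulk libraries.

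Knockdown cells held less mRNA of EEF1A1, EEF1B2, EEF1G and EEF2 of the elongation machinery, as called by limma. The same held for 5 of 14 tested genes of eIF3 (35.7%, against 16.8% of all tested genes). They held more of EEF1A2, a relative of EEF1A1, and of the cap-binding repressor EIF4E2. Without the abundance trend in limma, the calls of EEF1A1 and EEF1A2 were lost, and 1 eIF3 gene, EIF3K, kept its call. By limma on log2(CPM + 0.5), 21 of the 58 tested factors were lower in the knockdown libraries at an adjusted p under 0.05 (36.2%, against 16.8% of all tested genes) and 8 were higher (13.8%, against 16.6% of all genes). In either direction 29 factors were called, 50% against 33.4%. The median log2 change of the factors was -0.05, beside a median of 0.00 over all tested genes. The changes were small: apart from EIF4EBP3 at -0.75, the called factors lay between -0.35 for EEFSEC and 0.32 for EIF4E2 on the log2 scale.

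Groups that did not overlap were counted as well. Both knockdown libraries lay below both controls for 27 factors (46.6%, against 32.3% of all genes), and above both for 16 (27.6%, against 33.4%). Translation factors are abundant mRNAs, and abundant genes are called more often. In a comparison limited to a mean of at least 50 CPM, chosen after the values were seen, 18 of 45 factors were lower (40%, against 25.9%) and 7 were higher (15.6%, against 23.6%). The number of calls depended on how the spread was estimated. Without the abundance trend in limma, 5 factors were lower (8.62%, against 7.44%) and 2 were higher (3.45%, against 6.71%). With DESeq2 on the recovered reads, 15 were lower (25.9%, against 8.65%) and 3 were higher (5.17%, against 7.27%). Under all 14 alternatives 4 falls (EEF2, EEF1G, EEF1B2 and EIF3K) and 1 rise (EIF4E2) were called.

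**Figure D1:**
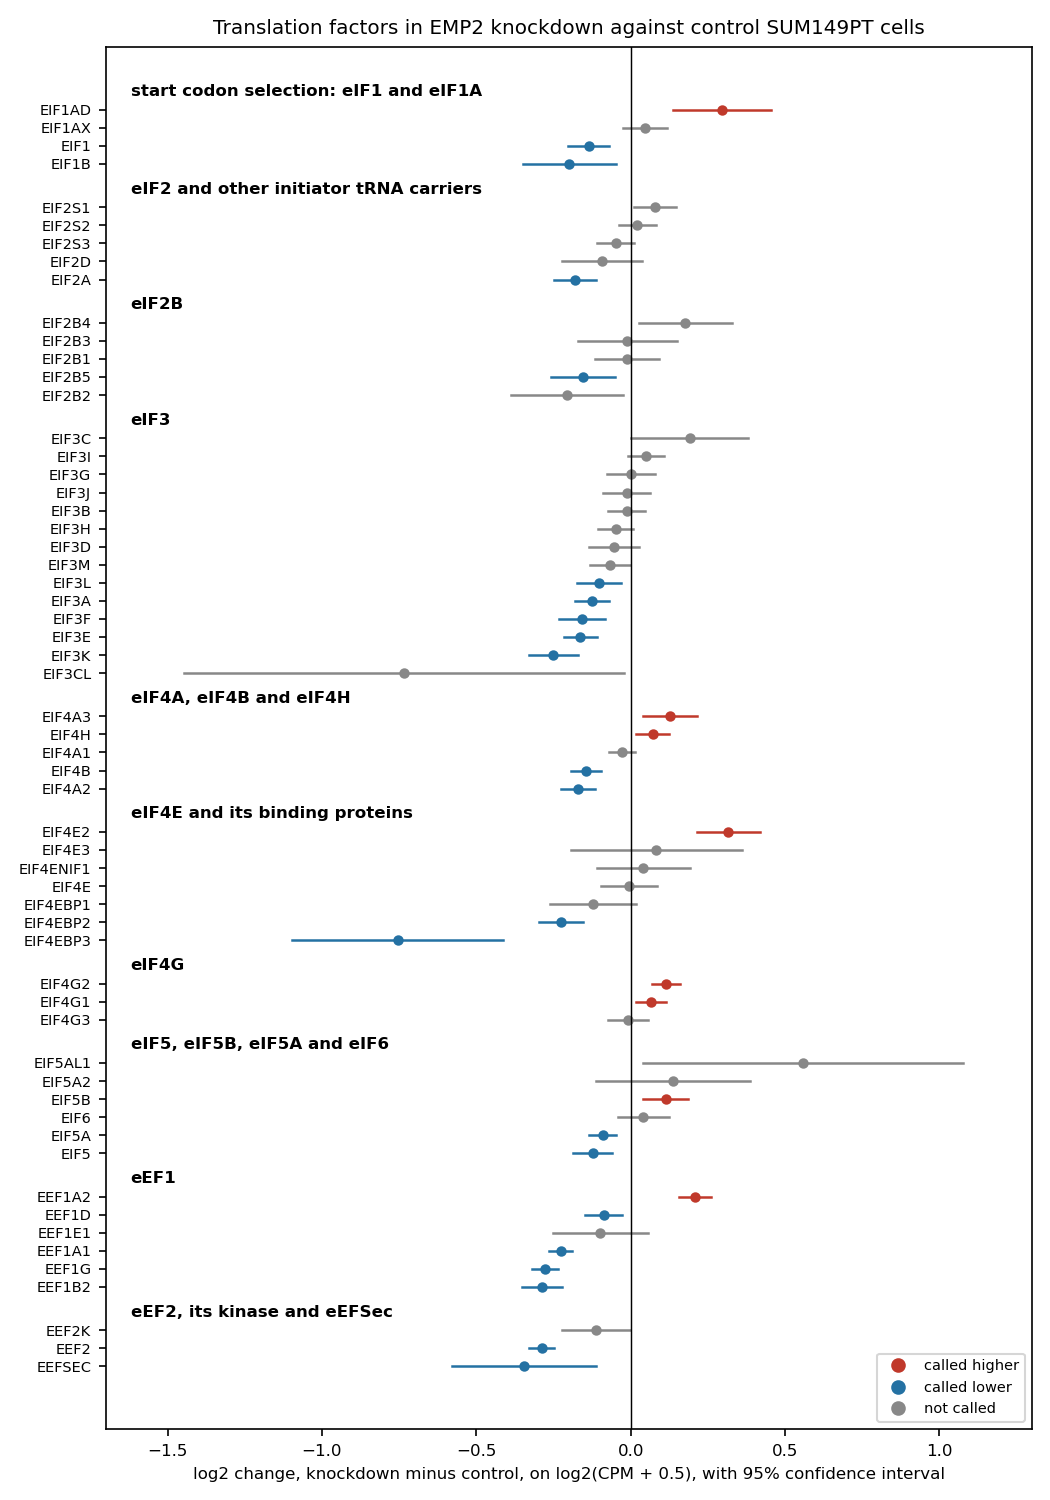
Log2 change (knockdown minus control, on log2(CPM + 0.5)) of the 58 tested translation factors with 95% confidence intervals, grouped by role. Red marks 8 factors called higher, blue 21 called lower and grey 29 not called; the elongation factors sit mostly left of 0, and the wide interval of EIF3CL goes with 1 control library that differs from the others.

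The first transcribed bases are shown for the factors that fell and have a TOP tract at the annotated start, to let their starts be compared, and for EEF1G and EIF4E2, which changed and have none there. The windows come from RefSeq promoters on GRCh38.p14, with 30 bases before the annotated start and 20 from the start onward, read 5′ to 3′ on the strand of the gene. Capitals mark the tract, a C at the annotated start and all pyrimidines (C or T) that follow it without a break, where at least 4 follow. In EEF1G and EIF4E2 the single capital marks the annotated start base. In both, a C and further pyrimidines follow directly after that base, which the rule does not count. EEF1B2 has another window whose annotated start holds no tract, and EIF4E2 another without one.
EEF1A1, chr6:73521013-73521062, minus strand: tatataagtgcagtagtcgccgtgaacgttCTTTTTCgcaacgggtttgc
EEF1B2, chr2:206159865-206159914, plus strand: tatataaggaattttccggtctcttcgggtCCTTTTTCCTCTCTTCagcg
EEF2, chr19:3985444-3985493, minus strand: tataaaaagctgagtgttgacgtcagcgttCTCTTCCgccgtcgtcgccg
EIF2A, chr3:150546757-150546806, plus strand: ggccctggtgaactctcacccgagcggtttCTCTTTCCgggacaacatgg
EIF3F, chr11:7987307-7987356, plus strand: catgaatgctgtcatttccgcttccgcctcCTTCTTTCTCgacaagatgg
EIF3K, chr19:38619158-38619207, plus strand: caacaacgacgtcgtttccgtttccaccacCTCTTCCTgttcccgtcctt
EIF4A2, chr3:186783547-186783596, plus strand: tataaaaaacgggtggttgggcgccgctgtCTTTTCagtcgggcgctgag
EIF4B, chr12:53006426-53006475, plus strand: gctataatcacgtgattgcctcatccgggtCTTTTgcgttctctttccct
EEF1G, chr11:62573872-62573921, minus strand: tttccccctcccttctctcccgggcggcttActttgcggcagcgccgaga
EIF4E2, chr2:232550659-232550708, plus strand: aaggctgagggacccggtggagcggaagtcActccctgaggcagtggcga

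RefSeq windows were matched to 48 tested factors, and 12 of them (25%) began with the tract. Besides the 8 shown these were EIF2D, EIF2S3, EIF3D and EIF3M. Of the 12, the 8 shown fell by limma, edgeR and DESeq2, but only 3 fell by limma without the trend. None of the 12 rose by these tools, nor in limma at an unadjusted p under 0.05. The log2 changes of the 12 ran from -0.29 to -0.05 with a median of -0.16. Of the 36 factors without the tract, 9 fell and 7 rose by limma, with a median of -0.01. The same split over the 9971 tested genes with a window gave 196 lower and 103 higher of 731 with the tract (26.8% and 14.1%), with a median of -0.05, and 1546 lower and 1614 higher of 9240 without it (16.7% and 17.5%), with a median of 0.01. Leaving out the factors and all genes with RPL or RPS names, 142 of 671 genes with the tract were lower (21.2%) and 103 higher (15.4%), with a median of -0.03. The tract was found at the start of 1429 of 35116 promoter windows (4.07%). The rule for the tract was set after the values were seen, so the split is a description without a test. A match is not evidence of how an mRNA is controlled. A gene without a match is not shown to lack the tract, since only annotated start bases were read. Factors with no window were EEF1A2, EEF1D, EIF2S2, EIF3A, EIF3CL, EIF3E, EIF3G, EIF3H, EIF3L and EIF4EBP1.

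**Figure D2:**
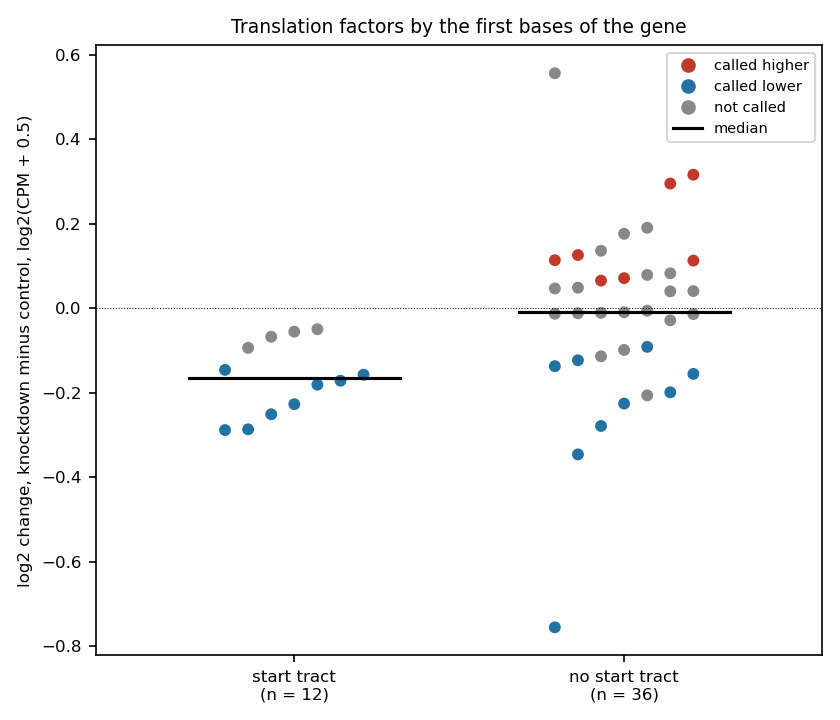
Log2 change of each tested translation factor with a RefSeq promoter window (1 point each, spread sideways for legibility), with the bar at the median. The 12 factors with a pyrimidine tract at the annotated start all lie below 0, and the 36 with none there lie on both sides of it.

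Of the eEF1 genes 4 of 6 fell and 1 rose by limma (66.7% and 16.7%, against 16.8% and 16.6% of all tested genes). EEF1A1, the main carrier of aminoacyl-tRNA, read 10905 and 10704 CPM in the controls, against 9364 and 9106 CPM in the knockdowns. Both knockdown libraries were lower, at 85.5% of the control mean (log2 change -0.23, SE 0.0179, limma adjusted p = 4.65e-08). It had the highest CPM of all genes in each of the 4 libraries, so quantile normalization, which gives the top gene of each library the same value, sets its change to 0 by construction. Its call was also lost by limma without the trend (adjusted p = 0.0548). EEF1A2, the form that muscle and neurons use in place of EEF1A1, read 774.3 and 803.9 CPM in the controls, against 917.5 and 905.7 CPM in the knockdowns. Its knockdown values were both above the controls, at 115.5% of the control mean (log2 change 0.21, SE 0.0242, limma adjusted p = 4.25e-06, up to 0.0655 under the alternatives).

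The eEF1B complex, which reloads eEF1A with GTP, had its 3 subunits called lower. EEF1B2, the exchange subunit beta, read 362.1 and 359.7 CPM in the controls against 303.9 and 288.0 CPM in the knockdowns (log2 change -0.29, SE 0.0304, limma adjusted p = 1.55e-06). EEF1G, the structural subunit gamma, read 2343 and 2300 CPM against 1923 and 1906 CPM (log2 change -0.28, SE 0.0197, limma adjusted p = 1.23e-08). In both genes the groups lay farther apart than the replicates of either group. EEF1D, the exchange subunit delta, fell by 0.09 on the log2 scale (limma adjusted p = 0.0232). Its call was lost in 5 of 14 alternatives, among them DESeq2 (adjusted p = 0.103), without control replicate 2 (-0.06, adjusted p = 0.233) and without knockdown replicate 1 (-0.08, adjusted p = 0.0765). EEF1E1, which serves in the tRNA synthetase complex, changed by -0.10 and was not called.

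EEF2, the translocase, read 3160 and 3148 CPM in the controls, against 2611 and 2556 CPM in the knockdowns. The knockdown libraries were both lower, at 81.9% of the control mean (log2 change -0.29, SE 0.019, limma adjusted p = 5.43e-09). With quantile normalization the change was -0.12 for EEF2 and -0.13 for EEF1G, still called. EEF2K, the kinase that inhibits eEF2, had a log2 change of -0.11 and was not called (limma adjusted p = 0.108). EEFSEC, which brings selenocysteine tRNA to the ribosome, was a low-abundance mRNA with 13.6 and 15.1 CPM in the controls, against 11.8 and 10.5 CPM in the knockdowns. Its groups did not overlap (log2 change -0.35, SE 0.11, limma adjusted p = 0.0227), but the call was lost in 5 settings named in the closing section, among them DESeq2 (adjusted p = 0.252), and its exons overlap those of RUVBL1 on the opposite strand. The 6 genes of eEF1A, eEF1B and eEF2 took 1.77% and 1.75% of the CPM of the control libraries and 1.56% and 1.51% of the knockdown libraries. All 60 factors took 3.11% and 3.10% in the controls and 2.90% and 2.84% in the knockdowns. Without EEF1A1 the gap was smaller, with 2.04% in each control and 1.96% and 1.93% in the knockdowns.

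**Figure D3:**
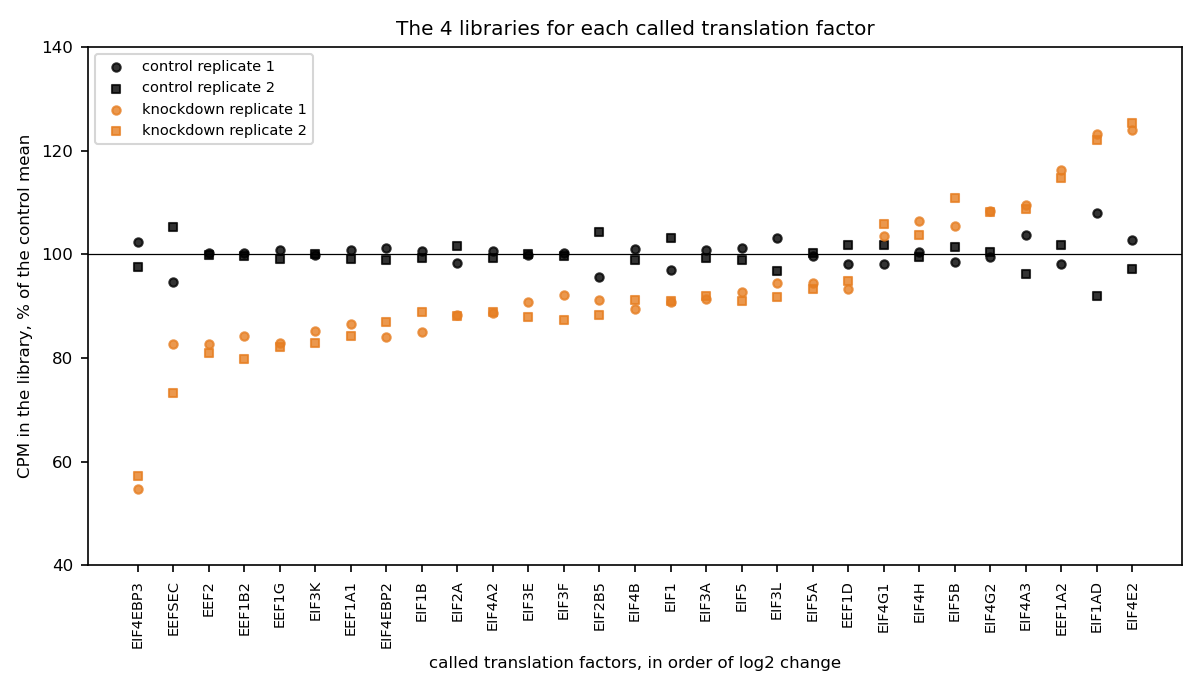
CPM of the 29 called factors in each of the 4 libraries, as a percentage of the control mean, in order of log2 change. Black symbols are controls and orange symbols knockdowns; the groups are separate for each gene, with EEF2 at 81.9% and EIF4E2 at 124.7% of the control mean.

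Among the factors that select the start codon, 2 of 4 fell and 1 rose (50% and 25%, against 16.8% and 16.6% of all tested genes). EIF1, which guards the choice of the start codon, read 318.9 and 339.1 CPM in the controls, against 298.6 and 299.6 CPM in the knockdowns (log2 change -0.14, SE 0.0316, limma adjusted p = 0.00295). Its close relative EIF1B read 29.3 and 28.9 CPM against 24.7 and 25.8 CPM (log2 change -0.20, SE 0.0713, limma adjusted p = 0.0414). Both genes were lower in both knockdown libraries. Without control replicate 2 the change of EIF1 was -0.09 and not called (adjusted p = 0.0684). The EIF1B call was lost when any one library was left out, and its exons overlap the antisense gene EIF1B-AS1. EIF1AD, a protein with an eIF1A-like domain that takes part in maturation of the small ribosomal subunit, read 33.2 and 28.2 CPM in the controls, against 37.9 and 37.5 CPM in the knockdowns. Both knockdown libraries were higher (log2 change 0.30, SE 0.0747, limma adjusted p = 0.00553). The change was 0.18 and not called without control replicate 2, the lowest library. The EIF1AD call was also lost by DESeq2 (adjusted p = 0.105) and by limma without the trend (adjusted p = 0.118). The exons of EIF1AD overlap those of BANF1 on the opposite strand. EIF1AX, which works with eIF1 in scanning, changed by 0.05 and was not called.

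The mRNAs of eIF2 itself were not called by limma, edgeR or DESeq2, and 1 of the 3 was higher at an unadjusted p under 0.05. EIF2S1, the alpha subunit whose phosphorylation shuts down initiation under stress, changed by 0.08 (limma adjusted p = 0.0674), EIF2S2 (beta) by 0.02 and EIF2S3 (gamma) by -0.05. EIF2A, an alternative carrier of initiator tRNA, fell by 0.18 on the log2 scale (limma adjusted p = 0.00031), and EIF2D, another such carrier, changed by -0.09 and was not called. Of the 5 eIF2B subunits only EIF2B5, the catalytic epsilon subunit, was called lower. This is 1 of 5 genes (20%, against 16.8% of all tested genes). EIF2B5 had a log2 change of -0.15 (limma adjusted p = 0.0214). It kept this call in 8 of 14 alternatives, not by DESeq2 (adjusted p = 0.207), and was at -0.09 without control replicate 2 (adjusted p = 0.258) and -0.13 without knockdown replicate 2 (adjusted p = 0.0788). The other eIF2B genes ran from -0.21 for EIF2B2 to 0.18 for EIF2B4, which was called higher without control replicate 2 (0.24, adjusted p = 0.0429).

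The eIF3 complex, which holds the small subunit and the mRNA together, had 5 of 14 tested genes lower by limma (35.7%, against 16.8% of all tested genes). The count was 6 by edgeR, which added EIF3CL, 4 by DESeq2 and 1 by limma without the trend. None was higher by limma, edgeR or DESeq2, with 1 (EIF3C) higher in limma at an unadjusted p under 0.05. Without EIF3C and EIF3CL, which encode the same subunit, 5 of 12 genes were lower by limma. EIF3K, a peripheral subunit, read 131.6 and 131.8 CPM in the controls, against 112.2 and 109.1 CPM in the knockdowns. The replicates of each group lay close together and the groups apart (log2 change -0.25, SE 0.0374, limma adjusted p = 6.03e-05). EIF3E and EIF3F fell by 0.16 each on the log2 scale, EIF3A, the scaffold of the complex, by 0.13 (limma adjusted p = 0.00115), and EIF3L, the partner of EIF3K, by 0.10. The call of EIF3L was lost with DESeq2 (adjusted p = 0.139), without control replicate 1 (-0.06, adjusted p = 0.325) and without knockdown replicate 2 (-0.08, adjusted p = 0.115). EIF3B, EIF3D, EIF3G, EIF3H, EIF3I, EIF3J and EIF3M were not called, with log2 changes from -0.07 to 0.05.

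EIF3C and EIF3CL are near-identical genes for the same subunit, at chr16:28688558-28735730 on the plus strand and chr16:28379579-28403879 on the minus strand of GRCh38, so reads of one can be counted to the other. EIF3C read 264.1 and 367.7 CPM in the controls, against 366.3 and 345.7 CPM in the knockdowns. EIF3CL read 135.6 and 37.9 CPM in the controls, against 35.9 and 51.4 CPM in the knockdowns. Control replicate 1 stood apart from the other 3 libraries in both genes, in opposite directions, and EIF3CL made up 33.9% of the pair there against 8.94% to 12.9% elsewhere. The sum of both, added after the values were seen, was 399.7 and 405.6 CPM in the controls, against 402.2 and 397.0 CPM in the knockdowns. It changed by -0.01 (SE 0.0263, 95% confidence interval -0.07 to 0.04, limma adjusted p = 0.794). Taken singly, EIF3C changed by 0.19 (limma adjusted p = 0.114) and EIF3CL by -0.73 (limma adjusted p = 0.107). Without control replicate 1 these became -0.05 and 0.18, also not called. edgeR called EIF3CL lower (adjusted p = 0.0455). Without control replicate 2 they became 0.43 (adjusted p = 1.19e-10) and -1.65 (adjusted p = 2.92e-15), and without knockdown replicate 2 they were 0.23 (adjusted p = 0.00453) and -0.99 (adjusted p = 0.000378).

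**Figure D4:**
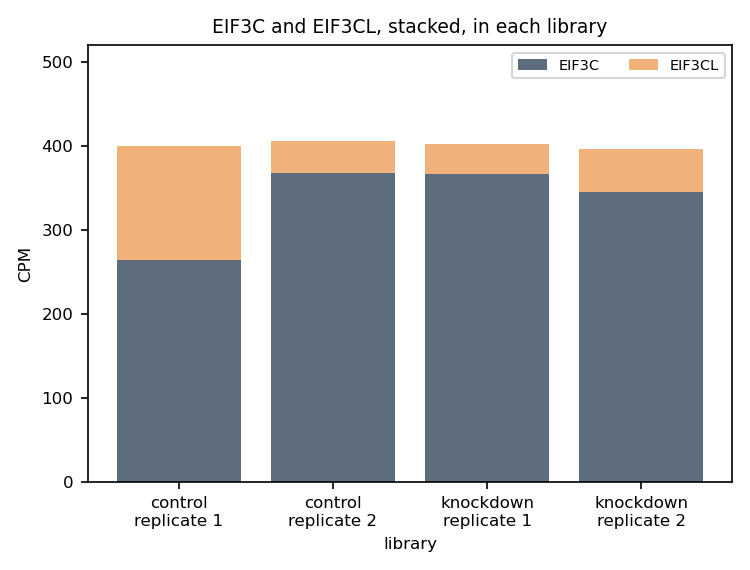
CPM of EIF3C and EIF3CL stacked in each of the 4 libraries. The total lies between 397.0 and 405.6 CPM throughout, while the share of EIF3CL is 33.9% in control replicate 1 and no more than 12.9% in the other libraries.

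The helicase of initiation and its activators moved in both directions. EIF4A1, the main helicase, read 1384 and 1401 CPM in the controls, against 1371 and 1360 CPM in the knockdowns, and was not called (log2 change -0.03, SE 0.0206, limma adjusted p = 0.324). EIF4A2, its close relative, read 437.5 and 432.0 CPM against 385.9 and 386.2 CPM and fell (log2 change -0.17, SE 0.0259, limma adjusted p = 6.98e-05). The knockdown values lay below both controls in both genes, at 88.8% of the control mean for EIF4A2 and 98.1% for EIF4A1. The exons of both genes overlap small nucleolar RNAs on the same strand. Those of EIF4A1 also overlap SENP3-EIF4A1 on the same strand, and those of EIF4A2 overlap RFC4 on the opposite strand. EIF4B, which stimulates the helicase, fell by 0.15 on the log2 scale (limma adjusted p = 0.000125). EIF4H, a related activator, read 527.3 and 523.0 CPM in the controls, against 559.4 and 544.5 CPM in the knockdowns (log2 change 0.07, SE 0.0252, limma adjusted p = 0.0373). EIF4A3, the member of the helicase family that sits in the exon junction complex, read 120.7 and 112.0 CPM against 127.5 and 126.5 CPM (log2 change 0.13, SE 0.0413, limma adjusted p = 0.0259). Both were higher in both knockdown libraries, and both calls were lost with DESeq2. EIF4H was not called without control replicate 1, control replicate 2 or knockdown replicate 1 (adjusted p = 0.0929, 0.163 and 0.206). EIF4A3 was at 0.07 without control replicate 2 (adjusted p = 0.293) and 0.12 without knockdown replicate 1 (adjusted p = 0.0583).

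Of the cap-binding proteins, EIF4E2 rose and EIF4E was not called. EIF4E, which recruits mRNA to the ribosome, read 84.2 and 86.0 CPM in the controls, against 83.8 and 85.8 CPM in the knockdowns, and its groups overlapped (log2 change -0.01, SE 0.0426, limma adjusted p = 0.944). EIF4E2, also known as 4EHP, binds the cap without binding eIF4G and represses translation. It read 62.5 and 59.0 CPM in the controls, against 75.3 and 76.1 CPM in the knockdowns. Both knockdown libraries were higher, at 124.7% of the control mean (log2 change 0.32, SE 0.0481, limma adjusted p = 7.19e-05, at most 0.0395 under the alternatives). Its exons overlap TIGD1 and MIR5001 on the opposite strand, and without a stated strand setting their reads cannot be told apart. EIF4E3 and EIF4ENIF1, which carries eIF4E into the nucleus, changed by 0.08 and 0.04 and were not called.

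The binding proteins that hold eIF4E back were lower or not called. EIF4EBP2 read 196.0 and 191.6 CPM in the controls, against 162.8 and 168.7 CPM in the knockdowns, with both knockdown libraries lower (log2 change -0.23, SE 0.0339, limma adjusted p = 6.7e-05). EIF4EBP1 read 39.8 and 44.4 CPM against 37.3 and 39.9 CPM, with overlapping groups (log2 change -0.12, SE 0.0661, limma adjusted p = 0.174). EIF4EBP3 had the largest called change of all factors, from 6.43 and 6.13 CPM to 3.44 and 3.60 CPM (log2 change -0.75, SE 0.161, limma adjusted p = 0.0016). Its values are shown by choice after they were seen. It had a mean under 5 CPM and overlaps the read-through gene ANKHD1-EIF4EBP3 on the same strand, and DESeq2 did not call it (adjusted p = 0.0522).

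The eIF4G scaffolds had 2 of 3 genes higher by limma (66.7%, against 16.6% of all tested genes). The count was 1 by edgeR, 1 by DESeq2 and 0 by limma without the trend. EIF4G1, the main scaffold, read 1101 and 1141 CPM in the controls, against 1160 and 1187 CPM in the knockdowns (log2 change 0.07, SE 0.0235, limma adjusted p = 0.04). EIF4G2, also known as DAP5, which lacks the eIF4E-binding site, read 961.8 and 972.0 CPM against 1048 and 1045 CPM (log2 change 0.11, SE 0.0215, limma adjusted p = 0.000552). Both knockdown libraries were above both controls for each gene, by a wider margin for EIF4G2 than for EIF4G1 when measured against the gap between replicates. EIF4G1 kept its call in 8 of 14 alternatives and was at 0.04 without control replicate 1 (adjusted p = 0.368) and 0.05 without knockdown replicate 2 (adjusted p = 0.165). EIF4G3 read 242.3 and 242.4 CPM in the controls, against 236.6 and 245.2 CPM in the knockdowns and was not called (log2 change -0.01, SE 0.0308, limma adjusted p = 0.857).

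Among the late factors 2 of 6 fell and 1 rose (33.3% and 16.7%, against 16.8% and 16.6% of all tested genes). EIF5B, the GTPase of subunit joining, read 192.4 and 198.3 CPM in the controls, against 206.1 and 216.7 CPM in the knockdowns (log2 change 0.11, SE 0.0343, limma adjusted p = 0.0173). EIF5A, the hypusine-bearing factor that helps stalled ribosomes, read 1246 and 1253 CPM against 1180 and 1167 CPM (log2 change -0.09, SE 0.0209, limma adjusted p = 0.00286). Neither gene overlapped between the groups. The EIF5B call was lost by DESeq2 (adjusted p = 0.155), by limma without the trend (adjusted p = 0.214), without control replicate 1 (0.09, adjusted p = 0.119) and without knockdown replicate 2 (0.08, adjusted p = 0.155). EIF5A2, the relative of EIF5A, read 11.0 and 12.2 CPM in the controls, against 14.1 and 11.6 CPM in the knockdowns, which overlapped (log2 change 0.14, SE 0.117, limma adjusted p = 0.406). EIF5, which triggers GTP hydrolysis on eIF2, fell by 0.12 on the log2 scale (limma adjusted p = 0.00422), and EIF6, which keeps the large subunit from joining early, changed by 0.04 and was not called. EIF5AL1, a near copy of EIF5A from which reads may be miscounted, changed by 0.56 at under 5 CPM and was not called (limma adjusted p = 0.0926), though limma without the trend called it higher (adjusted p = 0.0479).

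Ratios within each library were taken for 7 pairs of related factors. The ratio of EEF1A1 to EEF1A2 was 3.81 and 3.73 on the log2 scale in the controls and 3.35 and 3.33 in the knockdowns, a change of -0.43. EIF4E relative to EIF4E2 went from 0.43 and 0.54 to 0.15 and 0.17, a change of -0.32. EIF4A1 relative to EIF4A2 went from 1.66 and 1.70 to 1.83 and 1.81, a change of 0.14. In these pairs the groups lay apart. They lay apart only narrowly for EIF5A over EIF5A2, from 6.76 and 6.63 to 6.34 and 6.59 (-0.23). The same held for EIF4G1 over EIF4G3, from 2.18 and 2.23 to 2.29 and 2.27 (0.07). In both pairs the nearest libraries of different groups lay closer together than the replicates of a group. The groups overlapped for EIF4EBP1 over EIF4EBP2 (0.10) and EIF1 over EIF1B (0.06). With 2 libraries against 2 the two-sided exact permutation test cannot go below p = 0.33, the value for the 5 separate pairs, and 0.467 after Benjamini-Hochberg adjustment over 7 pairs, so no ratio could pass a threshold.

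**Figure D5:**
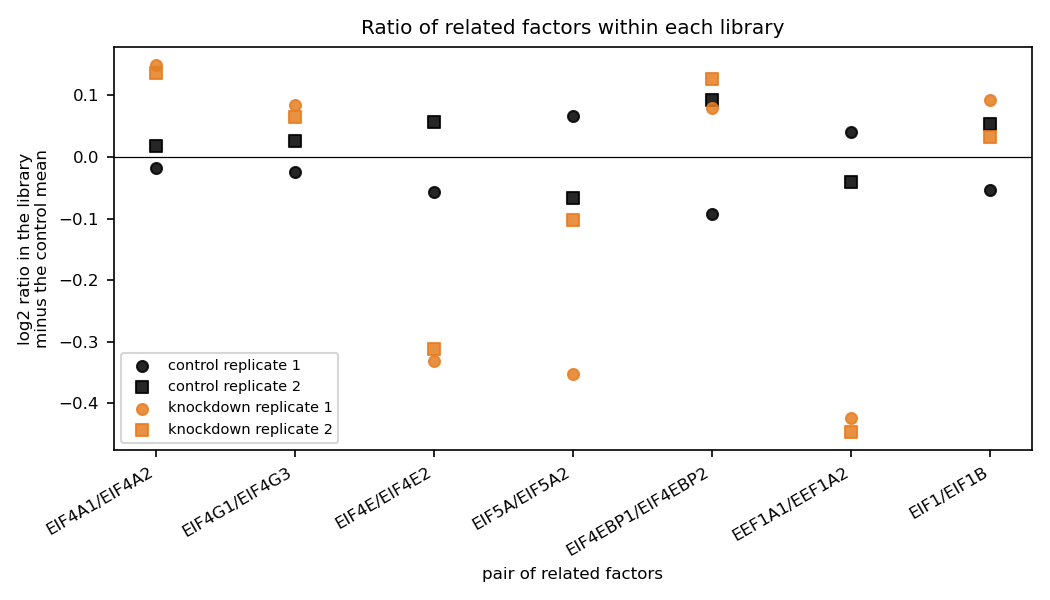
Log2 ratio of the CPM of 2 related factors in each library, minus the mean of the control libraries, for 7 pairs. The knockdown libraries lie about 0.43 below the controls for EEF1A1/EEF1A2 and about 0.32 below for EIF4E/EIF4E2, and overlap the controls for EIF4EBP1/EIF4EBP2 and EIF1/EIF1B.

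Genes that act beside the factors were read from lists of 57 symbols, 54 of them tested, of which 6 rose and 10 fell (11.1% and 18.5%, near the 16.6% and 16.8% of all tested genes), with a median log2 change of -0.01. The most changed was PABPC1, the poly(A)-binding protein that bridges the mRNA tail to eIF4G. It read 2982 and 2964 CPM in the controls, against 1940 and 1918 CPM in the knockdowns. Both knockdown libraries were lower, at 64.9% of the control mean (log2 change -0.62, SE 0.019, limma adjusted p = 3.81e-13), and the call held under all 14 alternatives. Of the 11 tested poly(A)-binding, cap and start site proteins 3 fell and 1 rose (27.3% and 9.09%, against 16.8% and 16.6% of all tested genes). PAIP2, which restrains poly(A)-binding protein, fell by 0.16 on the log2 scale (limma adjusted p = 0.0199), and DHX29, a helicase that helps scanning through structured leaders, rose by 0.18 (limma adjusted p = 0.00571). Neither was called by DESeq2, with adjusted p up to 0.21 for PAIP2 and 0.123 for DHX29 over the alternatives. LARP1, the protein that binds TOP tracts, changed by -0.04 and was not called.

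The control genes of translation moved in both directions. Of the 10 genes of TOR and MNK signalling limma called 4 higher and 1 lower (40% and 10%, against 16.6% and 16.8% of all tested genes). DESeq2, like limma without the trend, called 1 higher and 0 lower. MKNK2 and MKNK1, the kinases that phosphorylate eIF4E, rose by 0.20 (limma adjusted p = 0.000181) and 0.28 (limma adjusted p = 0.00255), and MTOR rose by 0.14 (limma adjusted p = 0.00417). Over the alternatives the adjusted p reached 0.0684 for MKNK2, 0.0939 for MKNK1 and 0.137 for MTOR, the last 2 not called by DESeq2. Of the 7 eIF2 kinases and phosphatase subunits 1 fell (14.3%, against 16.8% of all tested genes). This was PPP1R15B, a subunit that targets the phosphatase to eIF2 alpha. It fell by 0.11 (limma adjusted p = 0.0276, up to 0.223 over the alternatives and not called by DESeq2). The 4 eIF2 kinases were not called, with log2 changes from -0.06 for EIF2AK4 to 0.10 for EIF2AK3. The enzymes that make hypusine on eIF5A and diphthamide on eEF2 had 2 falls and 1 rise among 9. The shares were 22.2% and 11.1%, against 16.8% and 16.6% of all tested genes. DPH5, of the diphthamide pathway, fell by 0.34 (limma adjusted p = 0.000439) and DHPS, the first hypusine enzyme, by 0.16 (limma adjusted p = 0.0149), while DNAJC24 (DPH4), also of the diphthamide pathway, rose by 0.28 (limma adjusted p = 0.0227). DESeq2 called DPH5 alone of these.

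Of 10 mitochondrial translation factors 3 fell by limma (30%, against 16.8% of all tested genes) and 3 by edgeR. DESeq2 called 2 lower and limma without the trend 0. None rose by these tools, nor in limma at an unadjusted p under 0.05. The 3 were TUFM, the mitochondrial elongation factor Tu (log2 change -0.16, limma adjusted p = 0.000601), MRRF, the ribosome recycling factor (-0.24, limma adjusted p = 0.00117), and MTIF3, an initiation factor (-0.28, limma adjusted p = 0.0311), which kept its call in 8 of 14 alternatives (adjusted p up to 0.275). None of the 5 termination and recycling genes was called by limma or DESeq2. At an unadjusted p under 0.05 limma gave 1 higher and 1 lower, and edgeR called 1 lower. The 2 scaffold genes of the tRNA synthetase complex were not called by any of these tools, nor at an unadjusted p under 0.05.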

How the data were processed

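RNA from 2 control and 2 knockdown libraries was measured. Single reads of 50 bases were sequenced from 1 µg of total RNA after removal of ribosomal RNA, per the labels' protocols; the submitters' processing notes name STAR, bcl2fastq 2.17, DESeq2 and GRCh38. No counter, annotation or strand setting is given in the sources used here, and reads of overlapping genes cannot be told apart. In GENCODE v29, 26 of 60 factors overlap exons of another listed gene, 22 of them on the opposite strand. Among the 26 are also EEF1B2 (SNORA41, NDUFS1), EEF2 (SNORD37) and EIF4G2 (SNORD97, CTR9). The authors deposited TMM-normalized CPM, which is not corrected for gene length; levels were therefore compared between libraries, not between genes, and a shift shared by most mRNAs would be removed. Whole reads were recovered from the CPM steps (100% of values whole within 0.1 read).

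The test was limma 3.58.1 (R 4.3.3) with trend on log2(CPM + 0.5), two-sided, group as the term, and p-values were adjusted (Benjamini-Hochberg) over the 13661 genes that reached 1 CPM in 2 or more libraries; an adjusted p under 0.05 was a call. Fold changes of low genes are understated. edgeR 4.0.16 and DESeq2 1.42.0 on the recovered reads were alternatives, as were other pseudocounts, filters, quantile normalization, limma without the trend, a replicate block and leaving out each library. Replicates were not duplicates (chi-square 1.64 and 1.62 per gene) but varied little (edgeR coefficient of variation 2.15%). The procedure was also run on simulated data with changes of 1.25-fold or more. Only 2 called factors, both lower, changed by that much, so the run cannot speak for the smaller changes. Library values are given for the 8 largest called rises and falls with a mean of at least 5 CPM and for the related pairs; up to 3 called genes of each related list are named by smallest adjusted p. LARP1, the eIF2 kinases and EIF4EBP3 were named outside that rule, after their values were seen. The factors, lists and rules were chosen with earlier results of these data known, and the pyrimidine tract, the sum of EIF3C and EIF3CL and the limit of 50 CPM after the values were seen. Intervals and floors cover counting error or the spread between these libraries only.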

Additional observations from a re-analysis of the deposited data

How the results depend on the processing

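The count of 8 higher factors was 5 with no filter, 2 by limma without the trend, 3 by DESeq2, 6 by edgeR, 9 with quantile normalization and 5 to 7 when 1 library was left out. The main fit called 21 factors lower. The total called lower was 5 without the trend, 15 by DESeq2, 16 with no filter, 22 by edgeR and 19 with quantile normalization. By edgeR all 21 kept their call and EIF3CL was added. Leaving out a library leaves 1 sample in its group, which is assumed to vary like the others. Pseudocounts of 0.1 and 1 kept 8 and 21. Quantile normalization turned the uncalled change of EIF4A1 from -0.03 to 0.066 (adjusted p = 0.00367); the cause was not tested. It also ended the calls of EEF1A1, by construction, and EIF2B5, and EEF1A1 was not called by limma without the trend either. The changes of EEF2 and EEF1G were -0.12 and -0.13 with quantile normalization. EEFSEC lost its call with no filter, without the trend, by DESeq2, and without control replicate 2 or knockdown replicate 2. EIF4G1 and EIF4H lost theirs by edgeR, DESeq2, without the trend and with no filter. With the replicate block 8 factors were higher and 20 lower, EIF1B losing its call; same-numbered libraries did not deviate together (correlation -0.00295 over 13661 genes), so the numbers were not taken to pair them. With 2 libraries a group, the precision is least for low-abundance factors such as EIF5AL1, which limma called without the trend and not with it.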
